A study of Homo sapiens with 9 samples.

Results

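The genes described here make MHC class II presentation work: the chains HLA-DRA, HLA-DPA1, HLA-DPB1 and HLA-DQB1, the loading factors HLA-DMA, HLA-DMB, HLA-DOA and HLA-DOB, the invariant chain CD74 and the transactivator CIITA. They were taken as the probe sets whose only platform gene symbol is 1 of these 10 genes, which gave 29 of the 54613 probe sets tested. Each gene had 1 to 7 probe sets, and the 1 with the highest mean over all 9 arrays represents the gene, which gave 10 of 19775 genes. RNA came from P493-6 cells, a human B-lymphocyte line, and the labels assign 4 arrays to high Myc, 3 to low Myc and 2 to no Myc expression. All groups are of this single line, known, as background, for a MYC gene repressed by tetracycline and an estrogen-dependent EBNA2 protein of Epstein-Barr virus. The labels state no treatment, time or culture for any group, so each p-value speaks only of the spread among these arrays, which may be technical. Intensities deposited on a linear scale were turned to log2, and every level and difference below is on that log2 scale unless called a fold. A total RNA change cannot be seen after the authors' normalization, and in bulk RNA fewer cells of a type and less RNA per cell cannot be told apart.

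MHC class II molecules are pairs of an alpha and a beta chain that show peptides from endosomes to CD4 T cells, and B cells carry them at the surface throughout their mature life. The invariant chain blocks the groove until endosomal proteases cut it down to a short peptide, HLA-DM exchanges that peptide for others, and HLA-DO restrains HLA-DM. The genes share an upstream module of X and Y boxes, bound by the RFX complex, CREB and NF-Y, and CIITA is the coactivator that joins these factors and without which the genes are nearly silent.

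Upstream stretches of the 8 genes with an entry among the RefSeq promoters (GRCh38.p14, 250 bases before to 50 after the start site) are shown because that shared module can be read in them. HLA-DRA and CIITA are named only. Capitals mark matches to a pattern of the X box, which reads CC, any base, AG, any 2 bases, AC, any base, GA, and to ATTGG or its reverse complement CCAAT, the core of the Y box. Both were searched on both strands, and the 2 patterns do not overlap in these stretches. All stretches are written in the direction of the gene and lie between positions -132 and -40 from its start. They are reference sequence, and alleles of the P493-6 line may differ.
HLA-DPA1 (chr6:33073700-33073759, minus strand): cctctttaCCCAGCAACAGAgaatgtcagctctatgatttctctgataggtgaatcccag
HLA-DPB1 (chr6:33075867-33075927, plus strand): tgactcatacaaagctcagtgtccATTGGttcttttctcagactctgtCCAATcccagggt
HLA-DQB1 (chr6:32666733-32666789, minus strand): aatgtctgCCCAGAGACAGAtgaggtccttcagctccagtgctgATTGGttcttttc
HLA-DMA (chr6:32953164-32953221, minus strand): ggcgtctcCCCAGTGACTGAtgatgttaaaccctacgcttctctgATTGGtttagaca
HLA-DMB (chr6:32941068-32941127, minus strand): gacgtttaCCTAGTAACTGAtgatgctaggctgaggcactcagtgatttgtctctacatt
HLA-DOA (chr6:33009646-33009703, minus strand): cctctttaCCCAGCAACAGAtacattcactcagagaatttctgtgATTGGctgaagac
HLA-DOB (chr6:32817064-32817124, minus strand): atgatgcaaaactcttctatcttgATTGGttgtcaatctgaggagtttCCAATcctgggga
CD74 (chr5:150412951-150413011, minus strand): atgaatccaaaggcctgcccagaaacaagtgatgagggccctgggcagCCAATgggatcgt

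The X pattern was in the windows of 5 of the 8 genes, HLA-DPA1, HLA-DQB1, HLA-DMA, HLA-DMB and HLA-DOA, against 437 of all 35116 promoter windows (1.24%). HLA-DPA1 and HLA-DOA carry the same 12 letters, CCCAGCAACAGA. The Y core was in the windows of 7 of the 8 genes, all but HLA-DPA1, and in 34.6% of all windows. In HLA-DQB1, HLA-DMA and HLA-DOA an X match is followed by a Y match after 24, 25 and 25 bases. The order X then Y within 40 bases, searched only in the direction of the gene, was found in the windows of 8 genes in all (0.0228% of windows). Beside these 3 they were LINC00622, LOC124902393, MR1, TSR2 and UCMA, which are outside the set. The E box CACGTG, the letters bound by MYC with MAX, was in none of the 8 genes' windows and in 7.26% of all windows. A match describes the letters, and a window without one says nothing of what binds there.

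MYC was read first, as a check of the labels, since its level defines the groups. It was at 13.64, 13.47, 13.91 and 13.57 on the high Myc arrays, at 11.05, 11.30 and 10.49 on the low Myc arrays, and at 11.45 and 8.70 on the no Myc arrays. Against its label, the library labelled no Myc replicate 1 thus read above every low Myc array. The high Myc group exceeded no Myc in MYC by 3.57 ± 0.61 (log2 difference ± SE, limma, adjusted p = 0.00448), with 2.19 to 4.95 when arrays were left out in turn. The difference of low Myc from no Myc was 0.87 ± 0.65 (adjusted p = 0.538) and was -0.50 to 2.25 when arrays were left out, and the 2 groups overlapped in MYC. High Myc exceeded low Myc in MYC by 2.70 ± 0.54 with no overlap (adjusted p = 0.0525, called in 2 of 9 fits with 1 array left out). Array medians were 75.3 to 80.2 intensity units, and array correlations were 0.976 to 0.991 within and 0.926 to 0.983 between groups. RNA quality was read as the 3′ minus the 5′ probe set of control genes. It was 0.25 and 0.42 in no Myc and 0.01 to 0.24 elsewhere for GAPDH, and 0.0039 and -0.0113 in no Myc and -0.0744 to 0.188 elsewhere for ACTB. The part of this in the results was not tested.

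The 10 MHC class II genes were all lower in high Myc cells than in no Myc cells, from 1.47-fold for CD74 to 6.09-fold for HLA-DOB. Of the 29 probe sets, 23 were lower and 0 higher at an adjusted p under 0.05 (limma), against 7.8% of all probe sets called lower and 9.25% called higher. All 25 that passed an unadjusted p under 0.05 had a negative sign, beside 14259 of all 54613 probe sets that passed in either direction. The median difference was -1.49, beside -0.02 over all probe sets. For 26 probe sets every high Myc array lay below both no Myc arrays, against 17.4% of all probe sets. By representative probe set, 10 of 10 genes were lower, against 8.39% of genes. When the library labelled no Myc replicate 1 was left out, 17 probe sets and 8 genes were called lower, the 2 genes lost being CD74 and CIITA, and 8.69% of all probe sets were called in either direction, against 17.0% with all arrays.

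Low Myc cells also read lower than no Myc cells for these genes. Of the 29 probe sets, 21 were called lower and 0 higher, against 7.66% and 6.74% of all probe sets. All 23 that passed an unadjusted p had a negative sign, beside 13341 of all 54613 probe sets that passed in either direction. The median difference was -0.78, beside -0.01 over all probe sets, and 24 did not overlap between the groups, against 18.5% of all. By representative, 9 of 10 genes were lower, against 7.98% of genes, and the 1 not called was CD74. When the library labelled no Myc replicate 1 was left out, 10 probe sets and 5 genes (HLA-DPA1, HLA-DPB1, HLA-DOA, HLA-DOB and CIITA) were called, and 5.71% of all probe sets, against 14.4% with all arrays. Both comparisons use the same 2 no Myc arrays, so they are not independent of each other.

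High Myc and low Myc cells differed far less. Of the 29 probe sets, 3 were lower in high Myc and 0 higher, against 0.531% and 1.05% of all probe sets: HLA-DMB, the representative of HLA-DOA and 1 probe set of CD74. For 11 probe sets the 4 high Myc arrays lay below the 3 low Myc arrays without overlap, against 3.65% of all, and the median was -0.28. All 14 that passed an unadjusted p had a negative sign, beside 7093 of all 54613 probe sets that passed in either direction. Leaving out 1 array gave 0 calls without replicate 1, 3 or 4 of high Myc or replicate 1 of low Myc. It gave 1 call without low Myc replicate 2 and 4 calls without low Myc replicate 3, so the calls depend on the arrays used. In the fits with 0 calls, 0.443% to 0.467% of all probe sets were called in either direction, against 1.58% with all arrays. Over the 9 fits the differences were -0.97 to -0.70 for HLA-DMB, -0.84 to -0.63 for HLA-DOA and -1.58 to -1.18 for the CD74 probe set. The group means ran high Myc below low Myc below no Myc for 9 of the 10 genes, and CIITA alone had its lowest mean in low Myc.

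**Figure D1:**
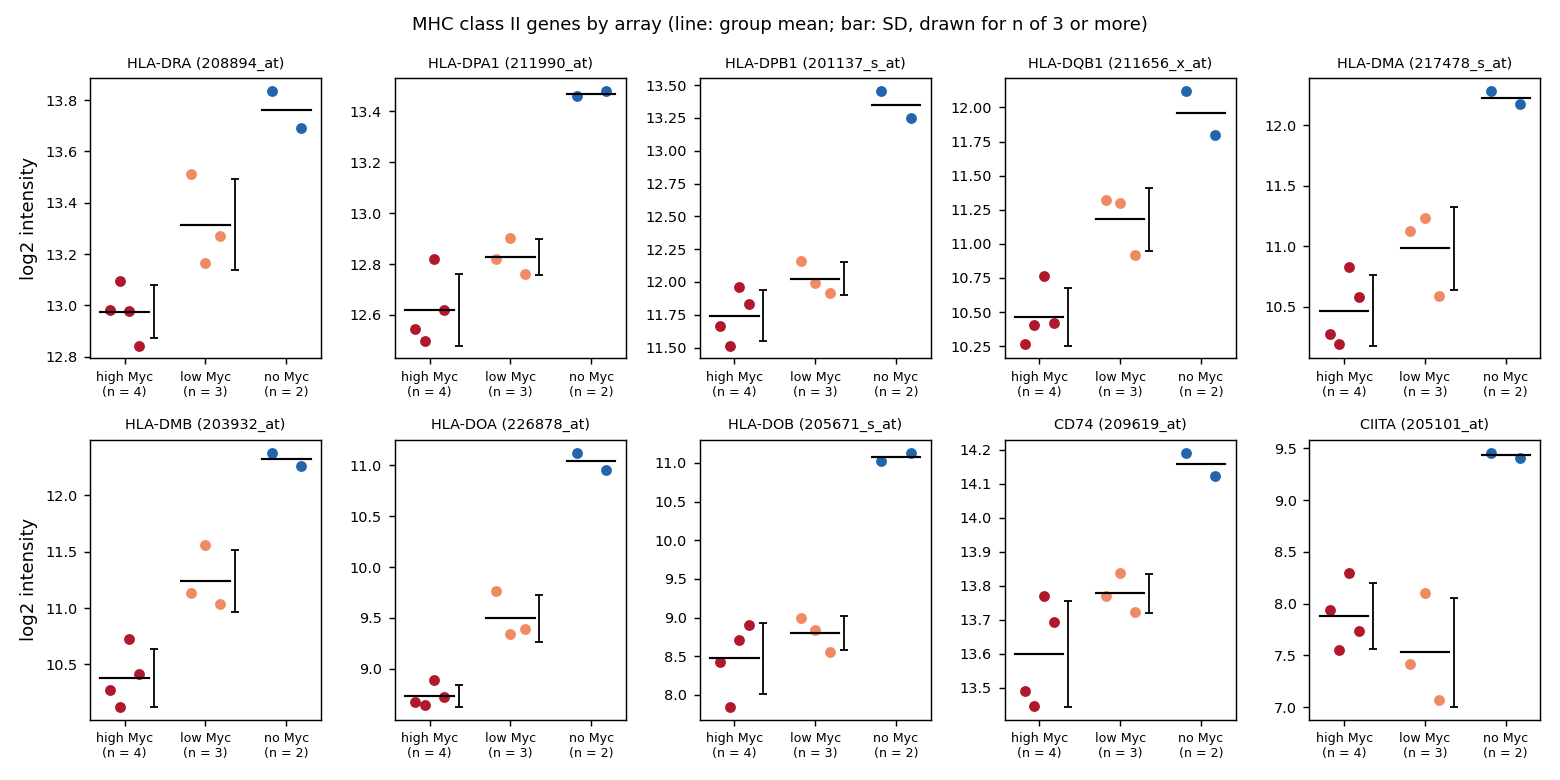
Log2 intensity of the representative probe set of each of the 10 MHC class II genes (1 panel a gene), with 1 point an array, for high Myc (n = 4), low Myc (n = 3) and no Myc (n = 2). In all 10 panels both no Myc arrays lie above every high Myc and every low Myc array, and the high and low Myc points overlap in 6 of them.

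The classical chains form the molecules that T cells see. HLA-DRA (probe set 208894_at), the alpha chain shared by all HLA-DR molecules, was at 12.98, 13.10, 12.98 and 12.84 in high Myc, 13.51, 13.16 and 13.27 in low Myc, and 13.83 and 13.69 in no Myc. The 3 groups did not overlap and stood in that order. HLA-DRA was lower than in no Myc by 1.73-fold in high Myc (log2 -0.79 ± 0.12, adjusted p = 0.00246) and by 1.36-fold in low Myc (-0.45 ± 0.13, adjusted p = 0.0464). The low Myc call was made in 1 of 9 fits with 1 array left out, and not without either no Myc array (adjusted p = 0.274 and 0.0977). The difference of high from low Myc was -0.34 ± 0.10 (adjusted p = 0.171). Its other probe set gave -1.05 ± 0.13 and -0.63 ± 0.14 against no Myc, both called, the low Myc one not when the library labelled no Myc replicate 1 was left out (adjusted p = 0.145).

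HLA-DP is built from HLA-DPA1, the alpha chain, and HLA-DPB1, the beta chain, which lie side by side on chromosome 6. HLA-DPA1 (211990_at) was at 12.55, 12.50, 12.82 and 12.62 in high Myc, 12.82, 12.90 and 12.76 in low Myc, and 13.46 and 13.48 in no Myc. Both no Myc arrays were above all others, and high and low Myc overlapped. The differences from no Myc were -0.85 ± 0.10 in high Myc (1.80-fold lower, adjusted p = 0.001) and -0.64 ± 0.11 in low Myc (1.56-fold, adjusted p = 0.00593). Its 2 dimmer probe sets fell further, with -1.46 ± 0.12 and -1.87 ± 0.37 in high Myc, and the second of these, at 11.11 and 10.10 on the no Myc arrays, was no longer called when the library labelled no Myc replicate 1 was left out (adjusted p = 0.106 in high and 0.098 in low Myc).

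HLA-DPB1 (201137_s_at) was at 11.67, 11.51, 11.96 and 11.84 in high Myc, 12.16, 11.99 and 11.91 in low Myc, and 13.45 and 13.25 in no Myc. The no Myc arrays stood apart by more than 1 log2 unit, and high and low Myc overlapped. It was 3.05-fold lower in high Myc (-1.61 ± 0.14, adjusted p = 0.00029) and 2.51-fold lower in low Myc (-1.33 ± 0.15, adjusted p = 0.00121) than in no Myc. The other probe set of the gene gave -1.54 ± 0.13 and -1.42 ± 0.13. HLA-DPB1 was called in both comparisons with either no Myc array left out.

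HLA-DQB1, the beta chain of HLA-DQ, was read by 7 probe sets. The representative, 211656_x_at, was at 10.27, 10.41, 10.76 and 10.42 in high Myc, 11.32, 11.30 and 10.92 in low Myc, and 12.12 and 11.80 in no Myc, with no overlap between any of the groups. Against no Myc it was lower by 2.82-fold in high Myc (-1.49 ± 0.17, adjusted p = 0.000829) and by 1.71-fold in low Myc (-0.78 ± 0.18, adjusted p = 0.0234), and the low Myc call was lost when the library labelled no Myc replicate 1 was left out (adjusted p = 0.193). Over the 6 called probe sets the differences were -1.95 to -1.49 in high Myc and -1.36 to -0.78 in low Myc. In low Myc 3 more of these 6 were not called when the library labelled no Myc replicate 1 was left out, 209823_x_at (adjusted p = 0.0921), 212998_x_at (0.0658) and 212999_x_at (0.108), the last of them also not without no Myc replicate 2 (0.0614). In all 6, high Myc also lay below low Myc without overlap, by 0.52 to 0.76, at adjusted p of 0.054 to 0.145. The seventh, between 4.47 and 5.001 on all arrays, was called in neither. The suffix of 5 of these probe sets marks probes that can match several transcripts, so related HLA-DQ sequences may share their signal.

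**Figure D2:**
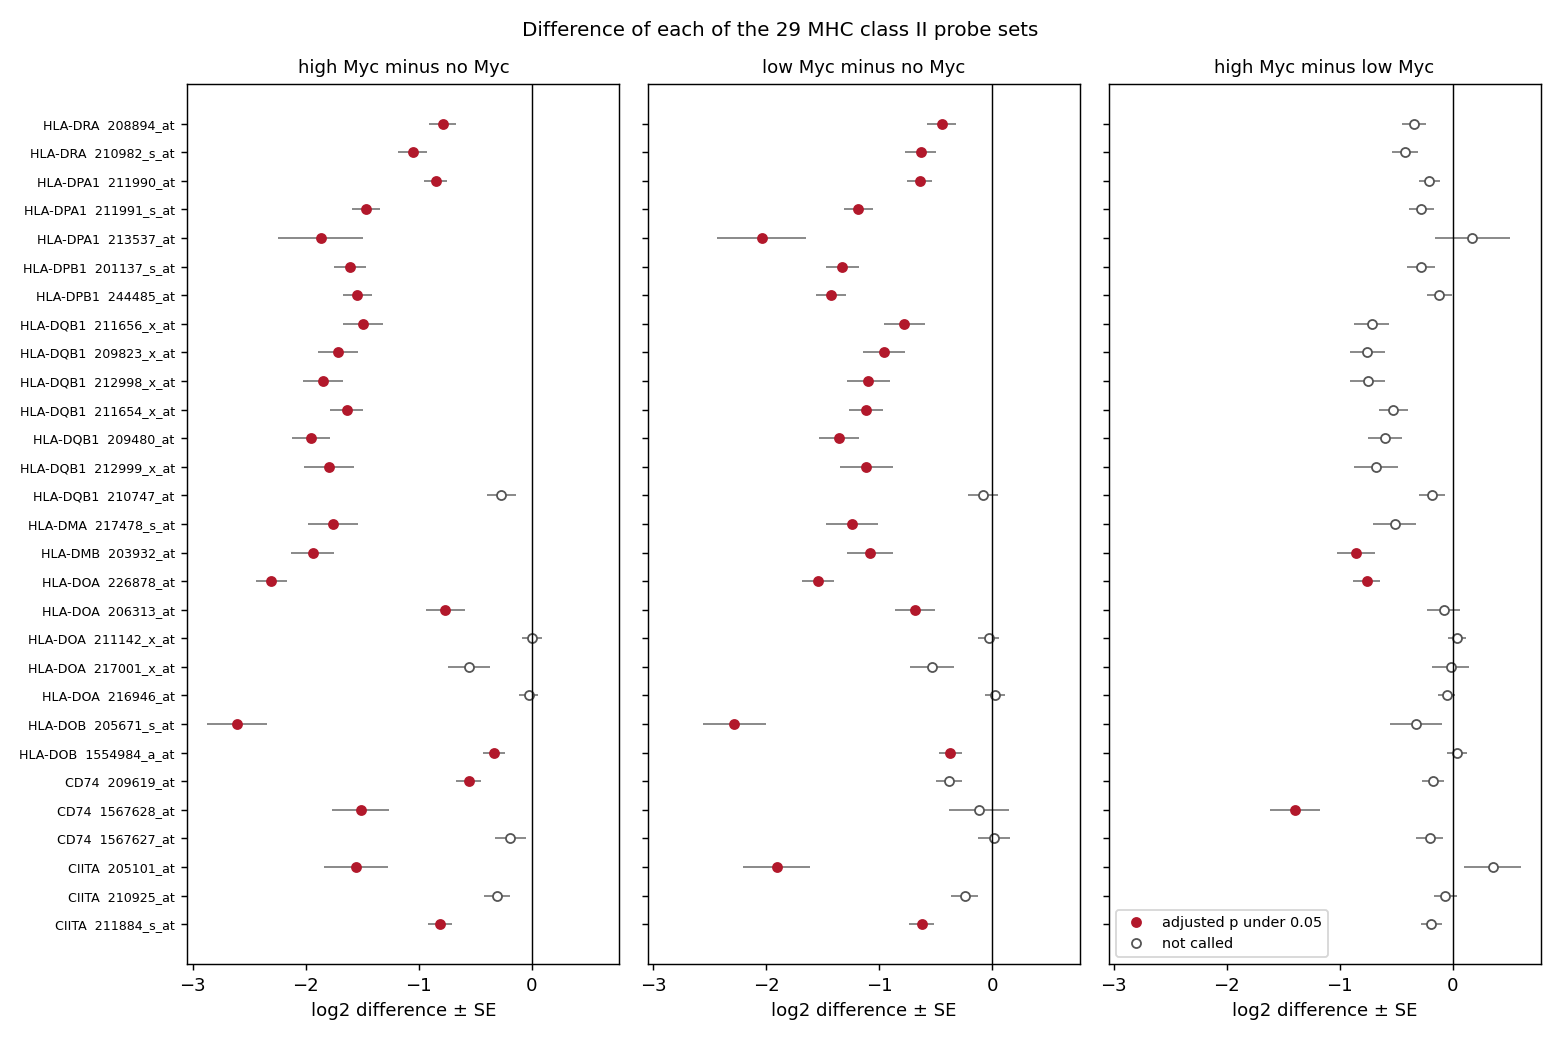
Log2 difference (± SE, limma) of each of the 29 probe sets in high Myc minus no Myc, low Myc minus no Myc and high Myc minus low Myc, grouped by gene. Against no Myc most points lie below 0, down to -2.61 for HLA-DOB, and the probe sets of several genes spread widely. In high Myc the probe set nearest to 0 was at 0.01 for HLA-DOA, -0.19 for CD74, -0.27 for HLA-DQB1, -0.31 for CIITA and -0.33 for HLA-DOB.

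HLA-DM is the editor that frees the groove and selects peptides of high affinity. Its alpha chain HLA-DMA (217478_s_at) was at 10.28, 10.19, 10.83 and 10.58 in high Myc, 11.13, 11.23 and 10.59 in low Myc, and 12.28 and 12.18 in no Myc. Its beta chain HLA-DMB (203932_at) was at 10.27, 10.12, 10.73 and 10.42 in high Myc, 11.13, 11.56 and 11.03 in low Myc, and 12.38 and 12.26 in no Myc. Both chains were highest on the no Myc arrays, and only HLA-DMB separated high from low Myc without overlap. HLA-DMA was 3.38-fold lower in high Myc (-1.76 ± 0.22, adjusted p = 0.00105) and 2.37-fold lower in low Myc (-1.24 ± 0.23, adjusted p = 0.00844) than in no Myc. HLA-DMB was 3.83-fold lower in high Myc (-1.94 ± 0.19, adjusted p = 0.000456) and 2.11-fold lower in low Myc (-1.08 ± 0.20, adjusted p = 0.00855). When the library labelled no Myc replicate 1 was left out the low Myc differences were -1.19 and -1.02 at adjusted p of 0.0741 and 0.0764. HLA-DMB was also lower in high than in low Myc by 0.86 ± 0.17 (adjusted p = 0.049), a call made in 0 of 9 fits with 1 array left out (adjusted p up to 0.131).

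HLA-DO binds HLA-DM and holds it back, and is found mainly in B cells. Its alpha chain HLA-DOA (226878_at) was at 8.68, 8.65, 8.89 and 8.72 in high Myc, 9.76, 9.34 and 9.39 in low Myc, and 11.12 and 10.95 in no Myc. The 3 groups were far apart relative to their own spread. HLA-DOA was 4.93-fold lower in high Myc (-2.30 ± 0.14, adjusted p = 0.000135) and 2.91-fold lower in low Myc (-1.54 ± 0.14, adjusted p = 0.000692) than in no Myc, called with either no Myc array left out. High Myc was below low Myc by 0.76 ± 0.12 (adjusted p = 0.0246), a call lost without replicate 1, 3 or 4 of high Myc or replicate 1 of low Myc (adjusted p up to 0.0816). Of the other 4 probe sets, 1 was called (-0.76 ± 0.17 in high Myc and -0.68 ± 0.18 in low Myc), but in neither when the library labelled no Myc replicate 1 was left out (adjusted p = 0.0936 in high and 0.212 in low Myc). Its low Myc call was made in 2 of 9 fits with 1 array left out. The remaining 3 had differences of -0.55 to 0.01 in high Myc and were not called, so the probe sets of HLA-DOA disagree in size.

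HLA-DOB (205671_s_at), the beta chain of HLA-DO, was at 8.43, 7.84, 8.72 and 8.90 in high Myc, 8.997, 8.84 and 8.56 in low Myc, and 11.03 and 11.13 in no Myc. The no Myc arrays were about 2 log2 units above all others, and the high and low Myc arrays overlapped. It had the largest differences from no Myc among the representatives, 6.09-fold in high Myc (-2.61 ± 0.26, adjusted p = 0.000501) and 4.86-fold in low Myc (-2.28 ± 0.28, adjusted p = 0.00163). High Myc differed from low Myc by -0.32 ± 0.23 (adjusted p = 0.724). The second probe set moved little, by -0.33 ± 0.10 and -0.37 ± 0.10 (adjusted p = 0.0483 and 0.0449, called in 1 of 9 fits with 1 array left out in each).

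CD74, the invariant chain, chaperones new class II molecules to the endosome. Its representative, 209619_at, was at 13.49, 13.45, 13.77 and 13.69 in high Myc, 13.77, 13.84 and 13.72 in low Myc, and 14.19 and 14.12 in no Myc. Both no Myc arrays were above the rest and close to the highest value on any array, 14.25 to 14.32. In high Myc CD74 was 1.47-fold below no Myc (-0.56 ± 0.11, adjusted p = 0.00836), but not called when the library labelled no Myc replicate 1 was left out (-0.52, adjusted p = 0.077). In low Myc it differed from no Myc by -0.38 ± 0.12 (adjusted p = 0.0639). How far values so near the top of the array are compressed was not tested.

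A second probe set of CD74, 1567628_at, ordered the groups differently. It was at 8.10, 8.59, 8.76 and 8.58 in high Myc, 10.32, 9.85 and 9.53 in low Myc, and 10.26 and 9.78 in no Myc. Here low Myc and no Myc overlapped (-0.12 ± 0.27, adjusted p = 0.901), and all high Myc arrays lay below both. In high Myc it was below no Myc by 1.51 ± 0.25 (adjusted p = 0.00389, and 0.0524 with the library labelled no Myc replicate 1 left out) and lower than in low Myc by 1.39 ± 0.22 (adjusted p = 0.0253, called in 4 of 9 fits with 1 array left out). The third probe set, between 6.69 and 7.19, was called in no comparison. The platform annotation does not say which transcripts of CD74 each probe set reads.

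CIITA (205101_at), the coactivator on which the class II genes depend, was at 7.94, 7.55, 8.29 and 7.74 in high Myc, 7.41, 8.10 and 7.07 in low Myc, and 9.46 and 9.41 in no Myc. The no Myc arrays were more than 1 log2 unit above all others, and high and low Myc overlapped. It was 2.93-fold lower in high Myc (-1.55 ± 0.28, adjusted p = 0.00588) and 3.75-fold lower in low Myc (-1.91 ± 0.30, adjusted p = 0.00404) than in no Myc. When the library labelled no Myc replicate 1 was left out these were -1.53 (adjusted p = 0.0557) and -1.88 (adjusted p = 0.041). High Myc differed from low Myc by 0.35 ± 0.25 (adjusted p = 0.712). A second, dimmer probe set was lower by 0.81 ± 0.11 in high Myc and 0.62 ± 0.11 in low Myc, and the third was not called (-0.31 ± 0.11 and -0.24 ± 0.12, adjusted p = 0.114 and 0.277).

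The 13 transcription factors of class II promoters that were measured did not move one way. Against no Myc, 3 were lower and 2 higher in high Myc, beside 8.39% and 13.5% of all genes, and 3 and 2 in low Myc, beside 7.98% and 10.5%, with median differences of -0.06 and -0.01. The 2 higher of 13 in high Myc are near that share. In each comparison, 1 was called lower when the library labelled no Myc replicate 1 was left out. RFX5, the largest subunit of the RFX complex at the X box, was at 10.03, 9.89, 10.06 and 10.03 in high Myc, 9.99, 10.10 and 9.97 in low Myc, and 11.18 and 11.14 in no Myc. High and low Myc overlapped in RFX5, and both no Myc arrays stood above them. It was lower by 1.15 ± 0.09 in high Myc (adjusted p = 0.000195) and by 1.14 ± 0.09 in low Myc (adjusted p = 0.000461), in 9 of 9 fits with 1 array left out.

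Its partner RFXAP went the other way, at 8.45, 8.20, 8.49 and 8.03 in high Myc, 8.37, 7.90 and 7.76 in low Myc, and 7.04 and 6.67 in no Myc. RFXAP was higher by 1.44 ± 0.20 in high Myc (adjusted p = 0.00191) and by 1.15 ± 0.22 in low Myc (adjusted p = 0.00861, not called without no Myc replicate 2). RFXANK, the third subunit, differed by -0.09 and -0.01 and was not called. NFYB, of the Y-box factor NF-Y, was higher by 1.21 ± 0.11 in high Myc (adjusted p = 0.00032) and by 1.06 ± 0.11 in low Myc (adjusted p = 0.00108). NFYA differed by 0.25 and 0.43 without a call, and NFYC by -0.39 (adjusted p = 0.0429) and -0.53 (adjusted p = 0.0159), with the sign turned when the median of its probe sets was taken. The high Myc call of NFYC was made in 2 of 9 fits with 1 array left out (adjusted p up to 0.308), and its low Myc call was lost when the library labelled no Myc replicate 1 was left out (adjusted p = 0.138). CREB1, at -0.44 and -0.37, IRF4, at -0.45 and 0.46, and IRF8, at -0.02 and 0.33, were not called. SPI1, the factor PU.1 of B and myeloid cells, was lower by 0.86 in high Myc (adjusted p = 0.0056) and by 0.96 in low Myc (adjusted p = 0.00585), in neither when the library labelled no Myc replicate 1 was left out.

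**Figure D3:**
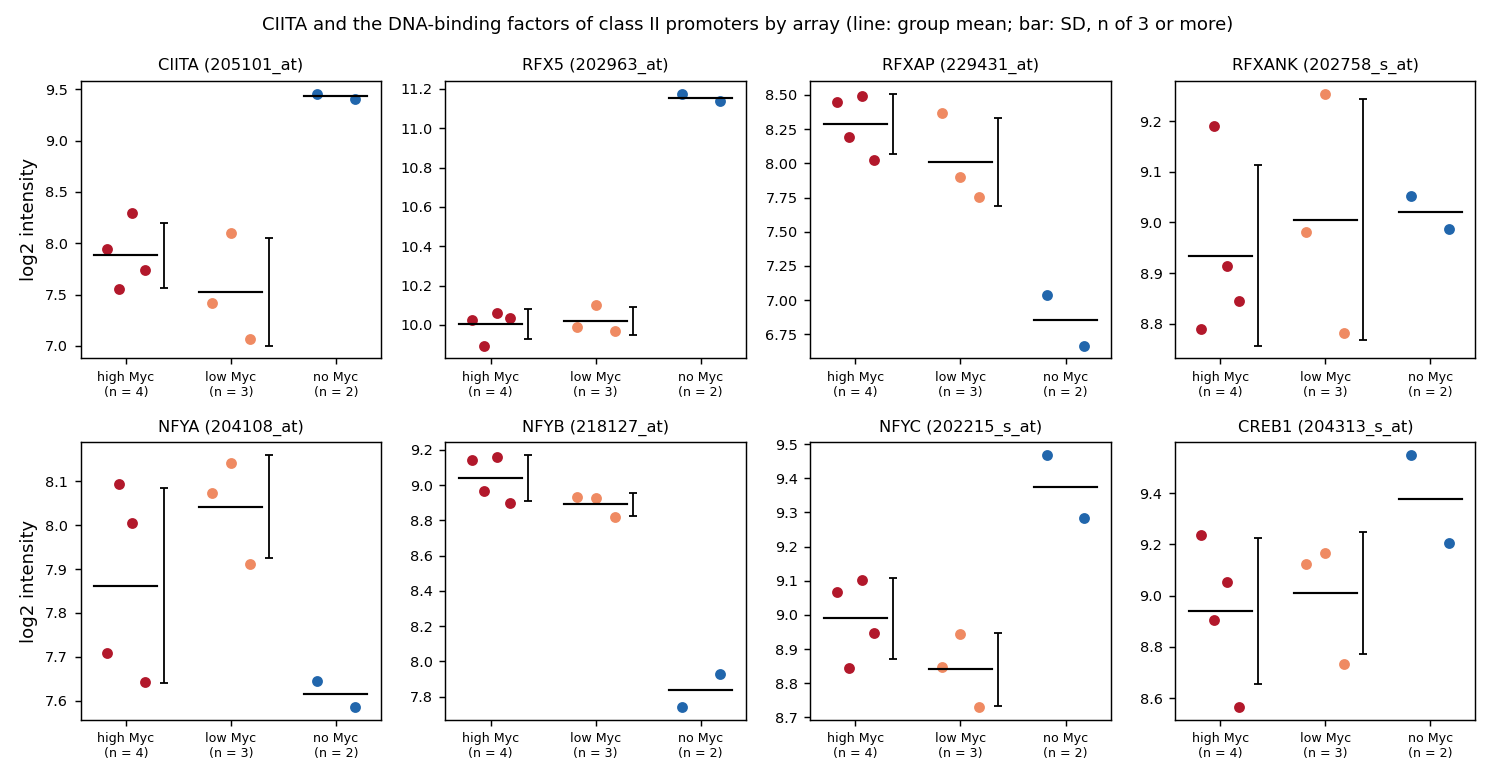
Log2 intensity of CIITA and of factors of the X and Y boxes on each array, for high Myc (n = 4), low Myc (n = 3) and no Myc (n = 2). CIITA and RFX5 are highest on the 2 no Myc arrays, RFXAP and NFYB are lowest there, and RFXANK overlaps across the groups.

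Interferon gamma is the classical inducer of CIITA outside B cells. Of 7 measured genes of its signalling, 2 were lower and 0 higher in each comparison with no Myc by limma. Beside them, 8.39% of all genes were lower in high Myc and 7.98% in low Myc. At an unadjusted p under 0.05 in either direction, 4 of the 7 passed in each comparison. Of all 19775 genes, 6017 passed in high Myc and 5700 in low Myc. The 4 include IFNGR2, higher by 0.39 in high Myc, and IFNGR1, higher by 1.39 in low Myc. Without high Myc replicate 2, 4 were called lower in high Myc and 1 was called higher in low Myc. Without either no Myc array 1 was called lower in low Myc. Over these genes high Myc replicate 2 had a mean level of 9.29, against 8.36 to 8.64 on the other high Myc arrays. JAK2, a kinase of the receptor, was lower by 1.71 ± 0.24 in high Myc (adjusted p = 0.00179) and by 1.19 ± 0.25 in low Myc (adjusted p = 0.0148, not called without either no Myc array). IRF1, a transcription factor that interferon induces, was lower by 1.09 ± 0.13 in high Myc (adjusted p = 0.000975) and by 1.13 ± 0.14 in low Myc (adjusted p = 0.00166).

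Among 12 measured genes of endosomal processing, 4 were lower and 1 higher in high Myc against no Myc, beside 8.39% and 13.5% of all genes, and 3 and 1 in low Myc, beside 7.98% and 10.5%. The 1 higher of 12 in each is near that share. CTSS, cathepsin S, which makes the last cuts in the invariant chain and was named after its values were seen, was lower by 1.13 ± 0.17 in high Myc (adjusted p = 0.00216) and by 1.68 ± 0.17 in low Myc (adjusted p = 0.000954). Of the other cathepsins, CTSB was lower by 1.38 ± 0.09 in high Myc and 1.68 ± 0.09 in low Myc, CTSZ by 1.68 ± 0.32 and 1.53 ± 0.33, and CTSH by 1.46 ± 0.27 in high Myc, with -0.69 ± 0.28 in low Myc (adjusted p = 0.168). The call of CTSZ was lost in both comparisons without no Myc replicate 1 and in low Myc also without no Myc replicate 2 or low Myc replicate 1, and that of CTSH without no Myc replicate 2. CTSC, which activates serine proteases, was higher by 1.40 ± 0.22 in high Myc and 2.09 ± 0.24 in low Myc.

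Among 13 measured genes of class II traffic and turnover, 5 were lower and 2 higher in high Myc against no Myc, beside 8.39% and 13.5% of all genes, and 4 and 2 in low Myc, beside 7.98% and 10.5%. The 2 higher of 13 in high Myc are near that share. MARCHF1, a ubiquitin ligase that removes class II from the surface, was at 5.22 to 5.44 in high Myc, 5.24 to 5.45 in low Myc, and 7.23 and 7.38 in no Myc. It was lower by 1.98 ± 0.11 in high Myc (adjusted p = 8.93e-05) and by 1.94 ± 0.11 in low Myc (adjusted p = 0.000207). Its relative MARCHF8 was lower by 0.90 ± 0.11 and 1.29 ± 0.12. CD82, a tetraspanin of class II compartments, was lower by 1.43 ± 0.17 in high Myc and 0.68 ± 0.18 in low Myc, and CD1D, a lipid-presenting molecule that also binds the invariant chain, differed by -3.28 ± 0.21 and -3.66 ± 0.22. The low Myc call of CD82 was made in 3 of 9 fits with 1 array left out, and the 2 higher calls in high Myc were 0 when the library labelled no Myc replicate 1 was left out.

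Among 9 genes linked to silencing of class II genes, 0 were lower and 3 higher in high Myc against no Myc, beside 8.39% and 13.5% of all genes. In low Myc 1 was lower and 3 higher, beside 7.98% and 10.5%. At an unadjusted p in either direction, 5 passed in each, against 6017 of all 19775 genes in high Myc and 5700 in low Myc. The 1 lower in low Myc was called in 1 of 9 fits with 1 array left out, that without low Myc replicate 2. HDAC2, a histone deacetylase, was higher by 1.57 ± 0.21 in high Myc and 1.14 ± 0.23 in low Myc. EZH2, the methyltransferase of Polycomb, was higher by 0.77 ± 0.16 and 1.34 ± 0.16, and DNMT1, the maintenance DNA methyltransferase, by 0.72 ± 0.15 and 0.74 ± 0.16. When the library labelled no Myc replicate 1 was left out, HDAC2 was the 1 of the 3 called in high Myc and EZH2 the 1 called in low Myc. Without no Myc replicate 2, DNMT1 lost both calls and HDAC2 its low Myc call. The low Myc call of DNMT1 was lost without low Myc replicate 1 as well. PRDM1, the repressor of CIITA in plasma cells, differed by -0.40 in high Myc and was not called.

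Class II molecules act beside costimulatory ligands on the B-cell surface. Of 12 such genes, 2 were lower in high Myc and 1 in low Myc, and 0 higher. Beside them 8.39% and 7.98% of all genes were lower, so the low Myc count is at that share. At an unadjusted p in either direction, 4 passed in each, against 6017 of all 19775 genes in high Myc and 5700 in low Myc. The median difference was -0.58 in high Myc, with 11 of 12 negative, and 0.18 in low Myc, with 4 of 12 negative. Differences in low Myc ran from -0.63 to 2.34, the highest being TNFSF4. CD40, the receptor for T-cell help, was lower by 0.95 ± 0.18 in high Myc (adjusted p = 0.00633), and ICOSLG, the ligand of ICOS, by 0.61 ± 0.12 in high Myc and 0.63 ± 0.12 in low Myc (adjusted p = 0.00811 and 0.0113). When the library labelled no Myc replicate 1 was left out none was called, and without high Myc replicate 2, 7 were lower in high Myc and 3 higher in low Myc. Over the 12 genes, high Myc replicate 2 had a mean level of 9.67, against 8.30 to 8.58 on the other high Myc arrays. The low Myc arrays were at 9.76 to 10.16 and the no Myc arrays at 9.54 and 9.32.

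**Figure D4:**
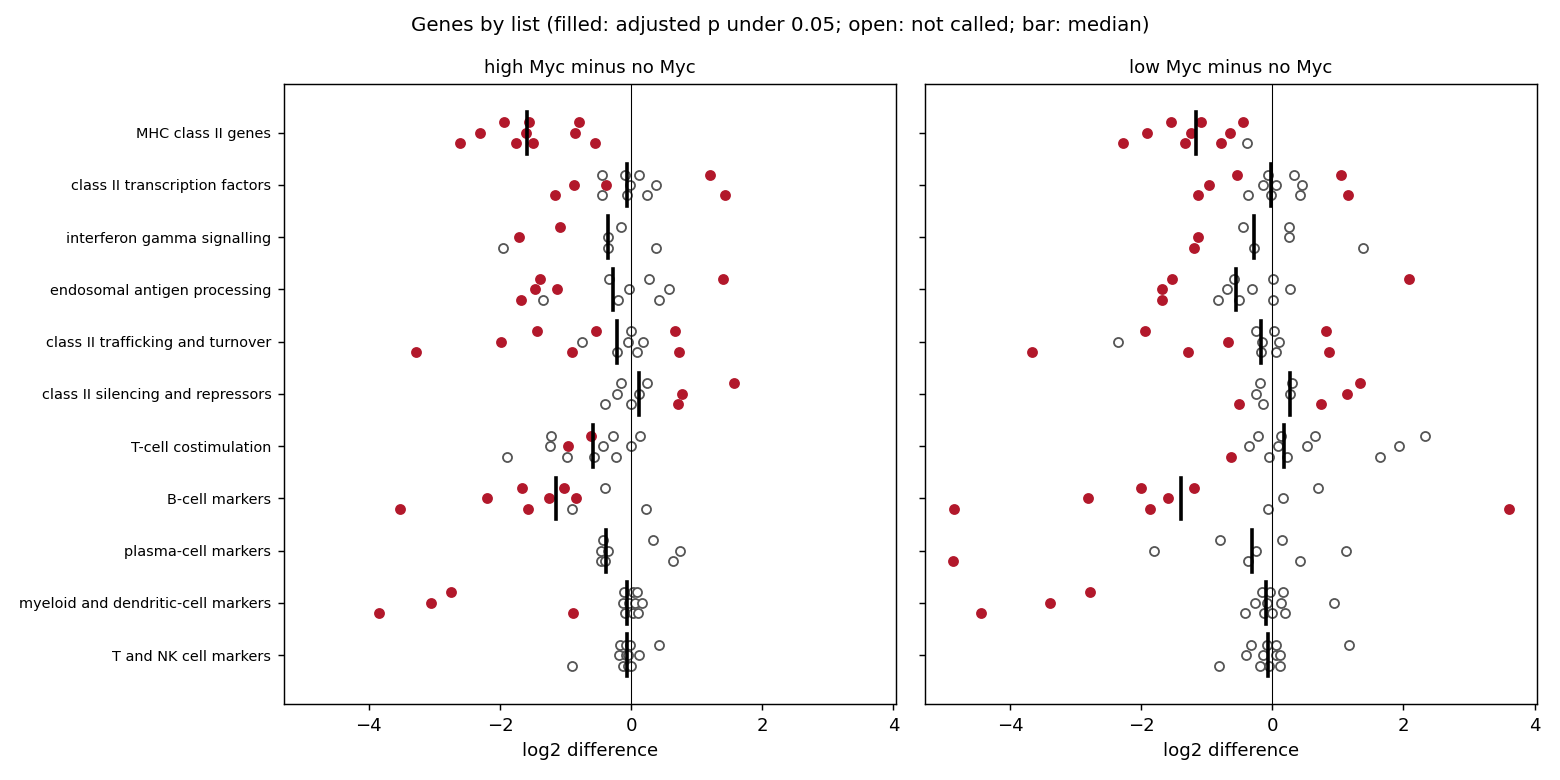
Log2 difference from no Myc of each measured gene (1 point a gene) in high Myc and in low Myc, for the 10 class II genes and for the 10 related or cell-type lists, with the list's median. The class II genes all lie below 0, with medians of -1.58 and -1.16, while the transcription factors straddle 0.

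Markers of cell types were read beside these genes, since B cells lose class II as they become plasma cells and other cells also carry it. Of 10 B-cell markers, 7 were lower and 0 higher in high Myc, beside 8.39% and 13.5% of all genes, and 6 lower and 1 higher in low Myc, beside 7.98% and 10.5%. Of these, 2 were called lower in each when the library labelled no Myc replicate 1 was left out. Their mean log2 level per array was 8.92 to 9.51 in high Myc, 9.27 to 9.59 in low Myc and 10.3 to 10.6 in no Myc. CD72, a coreceptor of B cells, was lower by 3.52 ± 0.57 in high Myc and 4.86 ± 0.60 in low Myc. The signalling chains of the B-cell receptor followed, CD79B at -2.20 ± 0.35 and -2.82 ± 0.36 and CD79A at -1.57 ± 0.31 and -2.00 ± 0.33, with CD79A called in neither when the library labelled no Myc replicate 1 was left out. BLK, a kinase of that receptor, was at -1.66 ± 0.48 in high Myc (called in 1 of 9 fits with 1 array left out) and 0.16 ± 0.50 in low Myc. CR2, the 1 marker called higher in low Myc, went the other way by 3.61 there and was named after its values were seen. It was at 9.69, 9.54 and 8.86 in low Myc, 5.94 and 5.56 in no Myc and 5.49 to 7.21 in high Myc. Of the 10 differences, 9 were negative in high Myc and 7 in low Myc. The part of these markers in the class II results was not tested.

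Of 8 plasma-cell markers, 0 were called in high Myc and 1 was lower in low Myc by limma, beside 7.98% of all genes lower in low Myc. At an unadjusted p in either direction, 2 passed in each, against 6017 of all 19775 genes in high Myc and 5700 in low Myc. The count called lower in low Myc was 0 without either no Myc array and 2 without replicate 1 or 2 of high Myc. The mean per array was 8.32 to 9.17 in high Myc, 7.77 to 8.60 in low Myc and 8.85 to 8.94 in no Myc. High Myc replicate 2 was the array at 8.32, and the other high Myc arrays were at 8.94 to 9.17. Of 14 myeloid and dendritic-cell markers, 4 were lower in high Myc and 3 in low Myc, beside 8.39% and 7.98% of all genes, with array means of 5.63 to 5.82 in high Myc, 5.68 to 5.87 in low Myc and 6.47 to 6.54 in no Myc. These were LYZ, lysozyme (-3.85 and -4.44), the integrin ITGAM (-3.05 and -3.40), CD1C, also carried by B cells (-2.74 and -2.78), and in high Myc ITGAX (-0.88, not called without no Myc replicate 2). Of the other markers of that list, CD14 was at 5.13 to 5.63 over all arrays, CSF1R at 5.18 to 5.84 and MPO at 5.28 to 5.62, and none was called in either comparison. Nothing is said of presence from these levels, and the part of such markers in the class II results was not tested. Of 12 T and NK cell markers, 0 were called in either comparison. At an unadjusted p 1 passed in high Myc and 2 in low Myc, against 6017 and 5700 of all 19775 genes. Their array means were 6.21 to 6.45 in high Myc, 6.28 to 6.52 in low Myc and 6.40 to 6.50 in no Myc.

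The profiles of the 10 representatives over the 9 arrays were averaged after centring each gene, and each gene was set against this mean by its root mean square distance in log2 units. HLA-DPB1 (0.0906) and HLA-DMA (0.135) lay nearest to the mean, and HLA-DOB (0.496), CIITA (0.411) and CD74 (0.391) farthest. Each member is itself part of that mean, which draws it nearer. Of the outside genes read next, 1770 lay nearer to the mean than HLA-DOB, 870 nearer than CIITA and 701 nearer than CD74. For HLA-DPB1 and HLA-DMA this count was 0. Among 17231 genes outside the set with a mean log2 of at least 5, the 8 nearest were NAGK (0.137), TMC6 (0.143), INPP5D (0.144), GMIP (0.148), TBRG1 (0.154), PIK3C2B (0.155), ARHGAP45 (0.167) and PPP1R18 (0.175). NAGK, the kinase of N-acetylglucosamine, was at 8.97, 9.24, 9.22 and 9.26 in high Myc, 9.64, 9.54 and 9.42 in low Myc, and 10.90 and 10.75 in no Myc, with a difference of -1.65 ± 0.11 between high and no Myc. The distance is a description over 9 arrays in 3 groups, and genes that differ between those groups in the same way score as near whatever they do.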

How the data were processed

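RMA was used to make the values, per the submitters' processing notes, and no version or genome build is given in the sources used here. The authors deposited intensity on a linear scale for 54675 probe sets, of which 62 array controls were left out. Log2 of the deposited intensity was fitted with limma 3.58.1 in R 4.3.3 for all 9 arrays in 1 fit (eBayes without trend, 6 residual degrees of freedom), two-sided. P-values were adjusted by Benjamini-Hochberg over the 54613 probe sets of a comparison and called under 0.05. No array had identical values to another. The number of arrays limits the precision.

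Of the tested probe sets, 41091 had 1 gene symbol, 1801 several and 11721 none, and 41037 symbols were updated through Entrez identifiers. From each related list up to 4 called genes with the largest difference of high Myc from no Myc were named, plus listed regulators whether called or not. Some others were named after their values were seen. The members and lists were chosen with earlier results of these data known, so their direction is no independent support. The procedure was tested on simulated data with independent noise on each array and differences placed in high Myc only. That test does not cover deviations shared between arrays or a doubtful label. Replicate numbers are shared between groups, and the deviations of the 7 same-numbered pairs correlated by -0.275 to 0.512. Pairs of replicate 1 correlated by 0.353 to 0.512, and pairs of replicates 2 and 3 by -0.275 to 0.116, with a cause not tested. The main fit did not use them as pairs, and the fit with the replicate block is given as an alternative. Alternatives were another normalization, centring, a filter, other gene summaries, priors, sample sets, the replicate block and single arrays left out.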

Additional observations from a re-analysis of the deposited data

Results flagged for a closer look

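In 2 of the 29 probe sets 1 high Myc array stood apart from the other 3 by Dixon's test, which chance alone passes in about 1 of 20 groups. For HLA-DOA probe set 216946_at the gap was 0.949 of the group's range, with 5.61, 5.61, 5.61 and 5.50 (log2) on the 4 arrays, a spread of little size in a dim probe set. For HLA-DOB probe set 1554984_a_at it was 0.996, with 6.57, 6.71, 6.71 and 6.71. Neither probe set represents its gene.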

How the results depend on the processing

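Against no Myc, the counts of class II probe sets and genes lower moved by at most 1.5 times in high Myc (21 to 23 and 9 to 10) and in low Myc (15 to 21 and 6 to 10) under the alternatives other than leaving out arrays. Under the replicate block, 0 probe sets and 0 genes were lower in high than in low Myc, with 0.287% of all probe sets called. The same counts were, with a cause not tested, 7 probe sets with quantile normalization repeated, 6 of 28 at a mean log2 of at least 5, and 1 gene with arrays centred on their median or only the 2 groups compared. The share called between high and low Myc was 2.69% with the filter, 3.60% with 1 probe set per gene, 2.55% with the median of probe sets and 0.753% with only those groups, and that between low and no Myc was 9.55% with only those groups.

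With 1 array left out, probe sets lower were 17 to 24 in high Myc and 10 to 20 in low Myc against no Myc, and 0 to 4 in high against low Myc. Genes were 8 to 10, 5 to 9 and 0 to 1. All features called were 8.69% to 18.1%, 5.71% to 15.8% and 0.443% to 3.48%. Probe sets higher were 0 in every such fit.

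The signs of these differences turned, with a cause not tested. For high minus no Myc these were HLA-DOA 211142_x_at (-0.018) and 216946_at (0.021) on repeated quantile normalization, 216946_at (0.017) and IRF8 (0.025) on centring, NFYC (0.12) and IRF4 (0.21) on the median of probe sets, and RFXANK (0.014) and IRF8 (0.20) under the block. For low minus no Myc they were HLA-DOA 211142_x_at (0.019) and RFXANK (0.034) on centring, NFYC (0.11) on the median, and CD74 1567627_at (-0.055) and RFXANK (0.055) under the block. For high minus low Myc HLA-DOA 211142_x_at was -0.0052 on repeated quantile normalization. Over fits with 1 array left out, high minus low Myc spanned -0.10 to 0.077 for HLA-DOA 217001_x_at, -0.0049 to 0.072 for HLA-DOB 1554984_a_at and -0.20 to 0.45 for HLA-DPA1 213537_at. High minus no Myc spanned -0.094 to 0.11 for HLA-DOA 211142_x_at, -0.036 to 0.0019 for 216946_at and -0.21 to 0.087 for IRF8. Low minus no Myc spanned -0.054 to 0.36 for BLK, -0.10 to 0.13 for CD74 1567627_at, -0.36 to 0.12 for CD74 1567628_at, -0.13 to 0.072 for HLA-DOA 211142_x_at, -0.023 to 0.074 for 216946_at, -0.21 to 0.0060 for HLA-DQB1 210747_at, -0.50 to 2.25 for MYC and -0.14 to 0.098 for RFXANK. Of dim probe sets nothing is said of presence.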

Other observations

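Another 12 probe sets carry a single symbol of an MHC class II gene or pseudogene outside the 10 genes, and were chosen after their values were seen. Of these, limma called 9 lower in high Myc against no Myc, 6 in low Myc against no Myc, and 0 in high against low Myc, beside 7.8%, 7.66% and 0.531% of all probe sets, with medians of -1.11, -0.71 and -0.39 on the log2 scale. HLA-DRB1, the main beta chain of HLA-DR, differed from no Myc by -1.15 in high Myc (adjusted p = 0.000393) and by -0.77 in low Myc (adjusted p = 0.00331). HLA-DQA1, the alpha chain that pairs with HLA-DQB1, had 3 probe sets, with -2.89, -1.65 and -0.88 in high Myc. The probe set 239975_at of HLA-DPB2, a pseudogene of the HLA-DP region, differed by -2.33 and -2.10. These genes have near-identical copies, and probes designed for 1 haplotype may read another, so the gene behind such a signal is uncertain.

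Within the no Myc group, 22 of the 29 class II probe sets were higher on the library labelled no Myc replicate 1, the one with more MYC signal, than on replicate 2. The median difference was 0.144 and the range -0.23 to 1.01 (log2), beside a median of 0.0046 over all probe sets. These values set 1 array against 1, and several of the probe sets read the same gene. The part of MYC in them was not tested.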
